A study of Homo sapiens with 6 samples.

Results

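The genes described here encode 7 proteins that recognize the 3′ splice site of introns: U2AF2, U2AF1, U2AF1L4, ZRSR2, PUF60, SF1 and RBM39. They were taken by gene symbol from a table of 57150 genes, and each symbol had 1 row. U2AF2 was chosen because its value was low in the KD column, and the other 6 genes were read beside it. Its difference between the columns is therefore a description of the choice. The samples were K562 cells, a human chronic myeloid leukemia line with erythroid features, harvested 72 h after siRNA transfection. In the labels, 3 samples received siRNAs against aCP1/2, which target PCBP1 and PCBP2 together, and 3 samples received control siRNAs. The study used them to ask how the αCPs, proteins that bind C-rich RNA, affect the splicing of alternative exons. For every gene the table gives 1 FPKM value, the number of fragments scaled by transcript length and by library depth, and 1 estimated count for each group. The values stand in columns labelled KD and CTRL, called here the KD and CTRL columns after those labels. The 3 libraries of a group are not separated in it, so no spread between replicates can be given, and no test was run on any difference below.

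Splicing of most introns begins when the branch point, the polypyrimidine tract and the AG at the 3′ end of the intron are bound. SF1 binds the branch point, the large U2AF subunit U2AF65, which U2AF2 encodes, binds the polypyrimidine tract, and the small subunit U2AF35, which U2AF1 encodes, contacts the AG. PUF60 and RBM39 are relatives of U2AF65, and U2AF1L4 and ZRSR2 are relatives of U2AF35. Apart from ZRSR2, which acts at the rare U12-type introns, these proteins help to bring U2 snRNP to the branch point.

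The labels were checked first against the targeted genes. PCBP1, which encodes αCP1, had an FPKM of 184.1 (KD) and 187.8 (CTRL), and PCBP2, which encodes αCP2, had 530.8 and 342.4. Neither targeted mRNA was reduced 2-fold in the KD column. PCBP1 was nearly equal in the 2 columns, at 0.98 of its CTRL value in the KD column. PCBP2 was higher in the KD column, at 1.55 times its CTRL value. The names KD and CTRL therefore stand for the labels alone, and no direction below is tied to a depletion of the αCPs. Markers of the labelled cell line were mostly missing. Of 12 erythroid and hematopoietic genes, 6 were listed at an FPKM of 0 in both columns, among them GATA1, KLF1 and TAL1, and 1, HBE1, was over 5 in both. Of 6 epithelial genes, 3 were over 5 in both columns, namely KRT7, KRT8 and KRT18. The others were lower: KRT19 was at 0 in both columns, CDH1 at 0.36 and 0.43 and EPCAM at 3.94 and 3.26. The summed FPKM was 161.6 and 43.4 for the erythroid list and 4358 and 3174 for the epithelial list, in the KD and CTRL columns. Few genes carried these sums: HBE1 alone had 152.9 and 35.4, and KRT18 alone had 2309 and 1748. Whether the table holds the libraries that the labels describe cannot be told from these values, and the part of cell identity in the values below was not tested. The estimated counts summed to 13699340 (KD) and 11680567 (CTRL). For each single library, the study reports more mapped read pairs than either sum. How the estimated counts relate to those pairs is not given in the sources used here. The counting intervals below rest on the estimated counts.

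U2AF2 (ENSG00000063244) lies on chromosome 19, plus strand, from 56165512 to 56186082 in GRCh37, the build that hg19 names. The 3′ splice sites of U2AF2 and U2AF1 themselves show the kinds of sequence that these proteins meet. The last 30 bases of an intron are given here for the most T-rich acceptor between coding exons of each gene and for the most C-rich one of U2AF1. They are written 5′ to 3′ on the sense strand, with T for the U of the RNA and with the acceptor AG in capitals. Introns are numbered from the first one between coding exons.

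U2AF2 intron 4 (chr19:56172374-56172403, most T): ggttttatccggcttttattccctttgaAG
U2AF1 intron 6 (chr21:44514674-44514703, minus strand, most C): agtaaatgtctccttccaacccacccacAG
U2AF1 intron 7 (chr21:44513360-44513389, minus strand, most T): cacggttttctttattttccttggttgcAG

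Of the 28 bases before the AG in U2AF2 intron 4, C made up 21.4% and T 50%. C outnumbered T before 9 of the 11 coding acceptors of U2AF2, but before 1 of 7 in U2AF1. The other members were as divided: C outnumbered T at 4 of 5 acceptors of U2AF1L4, 7 of 11 of PUF60, 4 of 12 of SF1, 1 of 15 of RBM39 and 0 of 10 of ZRSR2. Over all 112459 such acceptors of genes that averaged 1 FPKM or more, the share was 27.7%. In the 25% of genes with the highest GC content it was 72.6%, and U2AF2, with a GC content of 60.9%, is one of them. These counts describe the reference sequence, and no splicing at these sites was measured in the table.

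U2AF2 had an FPKM of 13.0 in the KD column, from 351 counts, and of 85.3 in the CTRL column, from 2393 counts. It was 6.57-fold lower in the KD column. The log2 ratio, always given as KD over CTRL and computed from FPKM + 1, was -2.63. Here 95% Poisson intervals of the counts, which cover counting error only, were carried over to FPKM. They ran from 11.7 to 14.4 and from 81.9 to 88.8 for U2AF2 and did not overlap, which held for every member except RBM39. The gap was narrow for U2AF1L4, at 11.28 (KD) against 11.35 (CTRL), and for ZRSR2, at 10.09 (KD) against 10.08 (CTRL). For both of these genes the interval from shares of all counts, given below, included equal shares. For U2AF2, the log2 ratio of its shares of all counts had a 95% exact binomial interval of -3.17 to -2.84, which again covers counting error only. Among genes that averaged 1 FPKM or more, U2AF2 stood at percentile 90.2 of FPKM in the CTRL column and at percentile 54.1 in the KD column. U2AF2 was thus close to the median of these genes in the KD column and well above it in the CTRL column. Among 9198 genes that averaged 5 FPKM or more and had at least 100 counts in both columns together, 8 were as low in log2 ratio as U2AF2 or lower, U2AF2 included. Without the minimum of 100 counts, 20 of 9432 genes were. Because U2AF2 was chosen for its low value in the KD column, these ranks describe the choice. The other 7 of the 8 were VAT1, CRIP1, the RNA gene RN7SL2 and 4 genes that carry clone names. In bulk samples, fewer cells with the mRNA and less mRNA per cell cannot be told apart.

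U2AF1 (ENSG00000160201, chromosome 21, 44513066 to 44527680), whose product forms the U2AF heterodimer with U2AF65, had an FPKM of 117.0 (KD) and 69.4 (CTRL). Its log2 ratio was 0.75, and the counts of 1398 and 943 gave a log2 ratio of count shares of 0.34 (95% interval 0.22 to 0.46). The subunits thus lay on opposite sides of 0. In the CTRL column the FPKM of U2AF2 was 1.23 times that of U2AF1, and in the KD column the FPKM of U2AF1 was 9.02 times that of U2AF2. On the log2 scale, the ratio of U2AF2 to U2AF1 differed between the columns by -3.47.

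**Figure D1:**
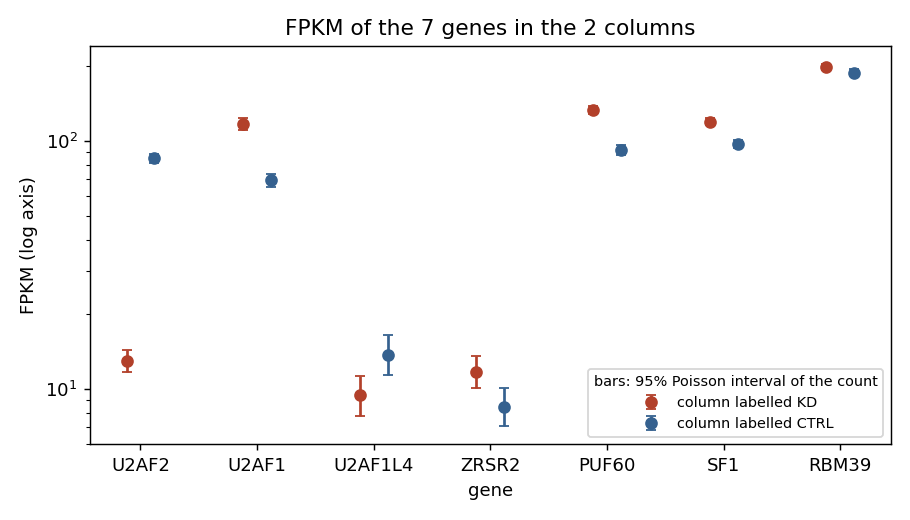
FPKM of each gene (log axis) in the KD column and in the CTRL column, with bars for the 95% Poisson interval of its count. U2AF2 lies at 13.0 and 85.3, while RBM39 lies at 198.5 and 188.9. The bars of the 2 columns overlap for RBM39 and for no other gene shown, but those of U2AF1L4 and ZRSR2 nearly touch.

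The U2AF35 relatives were the least abundant of the 7. U2AF1L4 (ENSG00000161265, chromosome 19, 36233365 to 36236346), also called U2AF26, can take the place of U2AF35 beside U2AF65. It had an FPKM of 9.41 (KD) and 13.8 (CTRL), a log2 ratio of -0.50. Its counts were nearly equal, at 117 and 114, and the interval for the count shares, -0.58 to 0.19, included 0. ZRSR2 (ENSG00000169249, chromosome X, 15808279 to 15848817) recognizes the 3′ splice site of the rare U12-type introns. It had an FPKM of 11.7 (KD) and 8.48 (CTRL), a log2 ratio of 0.42, and its interval of -0.058 to 0.61 from 183 and 129 counts also included 0. For neither gene was a difference detectable in the count shares at these estimated counts. ZRSR1, a retrocopy of ZRSR2 whose reads can be shared with it, had an FPKM of 1.72 and 2.71.

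Of the proteins with RNA recognition motifs like those of U2AF65, PUF60 (ENSG00000179950, chromosome 8, 144898514 to 144912879) binds the polypyrimidine tract together with U2AF. It had an FPKM of 133.5 (KD) and 92.4 (CTRL), a log2 ratio of 0.53. RBM39 (ENSG00000131051, chromosome 20, 34289269 to 34330234), also called CAPERα, is a splicing factor and transcriptional coactivator. It was the most abundant of the 7 in both columns, with an FPKM of 198.5 and 188.9, a log2 ratio of 0.071 and an interval of -0.021 to 0.11. SF1 (ENSG00000168066, chromosome 11, 64532078 to 64546258), the branch point binding protein, had an FPKM of 119.9 (KD) and 97.1 (CTRL), a log2 ratio of 0.30. The intervals of the count shares were 0.22 to 0.39 for PUF60 and 0.30 to 0.45 for SF1, but after adjustment for GC content and length the log2 ratios of both genes were below 0, at -0.069 and -0.11.

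By level, the order in the CTRL column was RBM39, SF1, PUF60, U2AF2, U2AF1, U2AF1L4 and ZRSR2. There the intervals of SF1 and PUF60 overlapped, as did those of PUF60 and U2AF2. In the KD column the order was RBM39, PUF60, SF1, U2AF1, U2AF2, ZRSR2 and U2AF1L4. U2AF2 overlapped ZRSR2 in that column, at 13.0 and 11.7, and SF1 overlapped U2AF1. Thus U2AF2 stood with the abundant factors in one column and with the rare ones in the other, whereas the other 6 genes kept to their abundance class.

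All 7 genes passed the filter on a mean FPKM of at least 1, as did 13741 genes in all. Of the 7, 1 was at a log2 ratio of -1 or less, which was U2AF2, and 3.27% of all genes tested were. At 1 or more there were 0 of the 7 and 8.51% of all genes. The median of the 7 was 0.30, beside 0.015 over all genes, with 5 above 0 and 2 below. These genes were chosen on the same contrast, so the counts are a description.

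**Figure D2:**
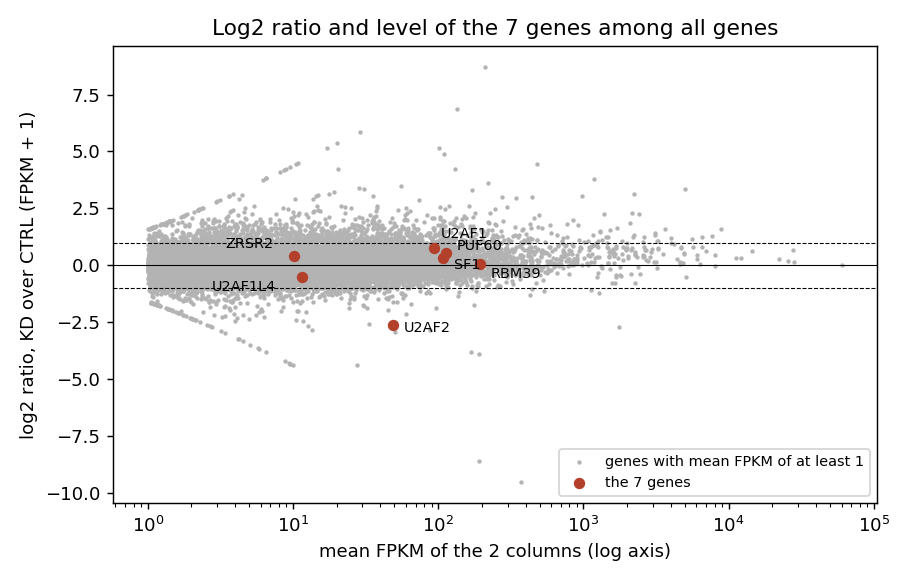
Log2 ratio of KD over CTRL (FPKM + 1) against the mean FPKM (log axis), with the 7 genes in red and all 13741 genes in grey. U2AF2 lies at -2.63, below the dashed line at -1, and the other 6 lie between -0.50 and 0.75.

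Ratios in this table followed base composition, and the members differ in it. Over 13298 genes the log2 ratio had a Spearman rho of 0.445 with the GC content of the longest transcript, across genes that share 2 columns and are not replicates. The median log2 ratio was -0.24 in the 25% of genes with the lowest GC content and 0.47 in the 25% with the highest. PUF60 (63.2% GC), U2AF2 (60.9%) and SF1 (59.3%) are among the latter, of which 1.20% were at -1 or less. After this trend and that with length were subtracted, U2AF2 was at -3.13, U2AF1 at 0.88, ZRSR2 at 0.61, U2AF1L4 at -0.79 and RBM39 at 0.24. The GC content and length used are those of the longest annotated transcript, which need not be the one that was counted. When shares of the column's counts replaced FPKM, the median of all genes was -0.21, and relative to it U2AF2 was at -2.79, U2AF1 at 0.55, ZRSR2 at 0.48, U2AF1L4 at 0.015, PUF60 at 0.51, SF1 at 0.58 and RBM39 at 0.25. U2AF2 thus lay below 0 and U2AF1, ZRSR2 and RBM39 above 0 under each of these scalings, although the count-share intervals of ZRSR2 and RBM39 included 0, and PUF60, SF1 and U2AF1L4 changed side. Of all genes that differed 2-fold in either direction, 72.2% were higher in the KD column with FPKM, 41.3% with count shares and 57.2% after the adjustment.

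**Figure D3:**
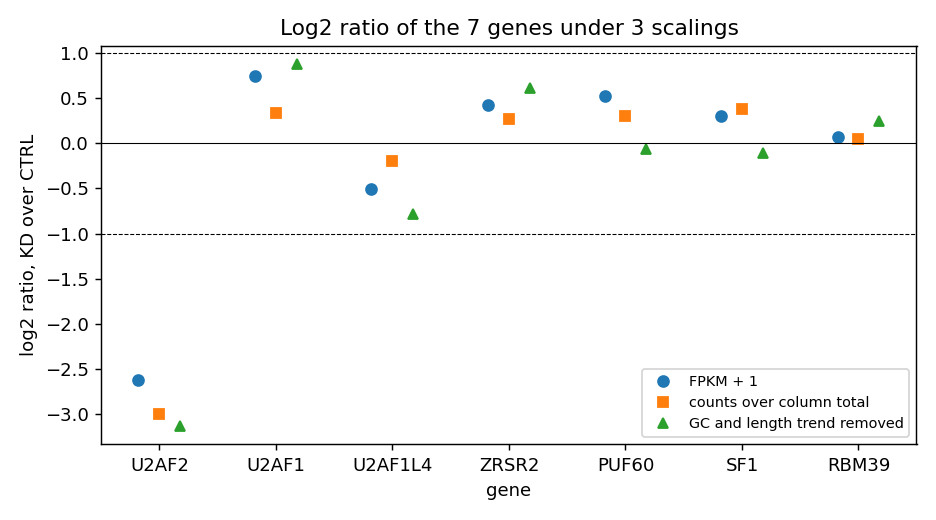
Log2 ratio of KD over CTRL for each gene, from FPKM + 1 (circles), from counts over the column total (squares, not set relative to the median) and after adjustment for GC content and length (triangles). U2AF2 lies between -3.13 and -2.63 in all 3, and PUF60 and SF1 lie on both sides of 0.

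The number of counts behind 1 unit of FPKM depends on the transcript length that the authors' counting used for a gene in each column, which the choice of genes did not use. For U2AF2 the value was 27.0 counts per FPKM in the KD column and 28.1 in the CTRL column. Divided by the median over 10886 genes with at least 50 counts in each column, their ratio was 0.962. For ZRSR2 and PUF60 it was 1.02 and 1.002. The middle 50% of genes lay between 0.965 and 1.04, which included ZRSR2 and PUF60, and U2AF2 lay just below it at percentile 24.3. U2AF1L4 stood out at 1.497, higher than 98.8% of genes, with 12.4 and 8.29 counts per FPKM. SF1 was at 1.23 and RBM39 at 1.15, above 94.1% and 89.6% of genes, and U2AF1 was at 0.88, above 10.3%. The annotation lists 21 transcripts for U2AF1L4, of which 4 are coding, 7 are targets of nonsense-mediated decay and 9 retain an intron. It lists 47 for RBM39, 24 for SF1, 11 for U2AF1 and 7 for U2AF2. Which transcripts the counting used was not analysed here. U2AF1 and U2AF2 each overlap 2 other annotated genes, 1 of them on the opposite strand, and the library kit does not mark strand. ZRSR2, PUF60 and RBM39 each overlap 1 gene on the opposite strand, which is AP1S2 for ZRSR2. U2AF1L4 overlaps 1 gene on its own strand, and SF1 overlaps 0. The part of these overlaps in the values was not tested. The overlapping genes of U2AF2 in the table, CTD-2537I9.12 and CTD-2537I9.13, had 9 counts or fewer in each column.

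The genes around U2AF2 on chromosome 19 did not share its log2 ratio. The table lists 25 other genes whose locus lies within 100 kb, and 9 of these averaged 1 FPKM or more with 10 or more counts in a column. Their log2 ratios ran from -0.038 to 1.77, with a median of 0.92. Of the 9, 4 were at 1 or more (8.51% of all genes) and 0 at -1 or less (3.27% of all genes). EPN1, the next gene downstream, which encodes an endocytic adaptor of clathrin-coated pits, had the highest, with an FPKM of 51.7 in the KD column and 14.4 in the CTRL column. Its log2 ratio was 1.77, and 1.82 after adjustment for GC content and length. CCDC106, upstream of U2AF2, had the lowest, with an FPKM of 8.03 and 8.27. The zinc finger genes ZNF524, ZNF865 and ZNF581 were the others at 1 or more, at 1.52, 1.38 and 1.21, and after the adjustment they were at 0.70, 0.34 and 0.69. The adjustment put the 9 genes between -0.94 and 1.82 with a median of 0.31, and it left 1 of them, EPN1, at 1 or more. It put FIZ1 below 0, from 0.17 to -0.21. CCDC106 and ZNF784, already just below 0 at -0.038 and -0.0023, were at -0.94 and -0.77 after it, beside -3.13 for U2AF2.

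**Figure D4:**
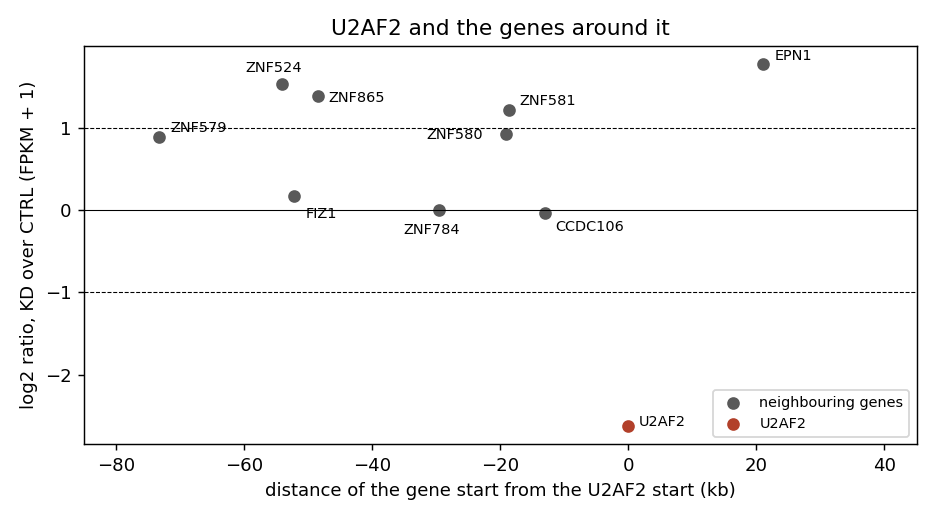
Log2 ratio of KD over CTRL (FPKM + 1) for U2AF2 (red) and the 9 neighbouring genes (grey), against the distance of each gene's start from that of U2AF2 in kb. U2AF2 lies at -2.63 and its neighbours between -0.038 and 1.77.

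The genes whose level was most like that of U2AF2 were found by the distance between log2(FPKM + 1) values over the 2 columns. The nearest 5 were ENSG00000180211, SERPINE2, RP11-667K14.4, AL358781.1 and TGIF2-C20orf24. SERPINE2, a secreted inhibitor of serine proteases, had an FPKM of 17.8 and 72.7 and a distance of 0.48. ENSG00000180211 was nearest, at a distance of 0.25, with an FPKM of 10.8 and 89.3 from 31 and 252 counts. Many genes of a table can lie close to a given one when only 2 values are compared.

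The proteins that the members other than ZRSR2 help to bring to the branch point are those of U2 snRNP. Of 20 of its genes, 1 was at a log2 ratio of -1 or less (3.27% of all genes) and 3 were at 1 or more (8.51% of all genes), with a median of -0.10 beside 0.015 over all genes. DDX46, a helicase that readies U2 snRNP for the branch point, had an FPKM of 30.7 (KD) and 83.4 (CTRL), a log2 ratio of -1.41. The 3 at 1 or more were the SF3B subunits SF3B5, at 1.17, and PHF5A, at 1.13, and the SF3A subunit SF3A2, at 1.09. SF3B5 had an FPKM of 146.3 and 64.6, and SF3A2 had 49.1 and 22.5. After adjustment for GC content and length, SF3A2 was at 0.20, SF3B5 at 0.78 and PHF5A at 1.11, and SF3B2, another SF3B subunit, was at 1.06.

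U2AF65 and several other splicing factors share a U2AF homology motif, a protein-binding fold that takes hold of a ligand motif in SF1 or SF3B1. Of 8 further genes for proteins with the motif or its ligand, 7 had a log2 ratio below 0, against 48.9% of all genes, and 1 had one of -1 or less, against 3.27%, with a median of -0.41. UHMK1, a kinase that phosphorylates SF1, was the lowest, with an FPKM of 7.01 in the KD column and 19.7 in the CTRL column. Its log2 ratio was -1.37, and -1.13 after the adjustment. RBM23, a relative of RBM39, was the highest, with an FPKM of 25.8 and 23.2 and a log2 ratio of 0.15, which was -0.056 with count shares.

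Of 24 genes for proteins that act with or against U2AF at the polypyrimidine tract or branch point, 0 differed 2-fold in either direction. Over all genes, 3.27% were at -1 or less and 8.51% at 1 or more. Of the 24, 12 lay above 0 and 12 below. HNRNPA1, which takes part in the proofreading of the 3′ splice site by U2AF, was the highest at 0.87, with an FPKM of 859.0 and 468.9. MBNL1, which competes with U2AF65 at some introns, was the lowest at -0.84, with an FPKM of 13.2 and 24.4. These values lie on the same scale as U2AF2 and were much smaller than its -2.63.

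Of 11 enzymes that modify U2AF, SF1 or the SR domains of splicing factors, 10 passed the filter, all but PRKG1, and 5 lay on each side of 0. CLK3, a kinase of SR proteins, was the highest, with an FPKM of 41.6 in the KD column and 17.7 in the CTRL column and a log2 ratio of 1.19. UHMK1 was the lowest. Of 7 U11/U12 snRNP genes, whose products work beside ZRSR2 on U12-type introns, 0 differed 2-fold in either direction. The shares over all genes were 3.27% at -1 or less and 8.51% at 1 or more. The median of the 7 U11/U12 genes was 0.38 beside the 0.42 of ZRSR2. With count shares these were 0.13 and 0.27, and after adjustment for GC content and length 0.095 and 0.61. ZMAT5 was the highest at 0.88, with an FPKM of 11.4 and 5.70, and SNRNP48 was the lowest at -0.82, with an FPKM of 7.30 and 13.6.

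**Figure D5:**
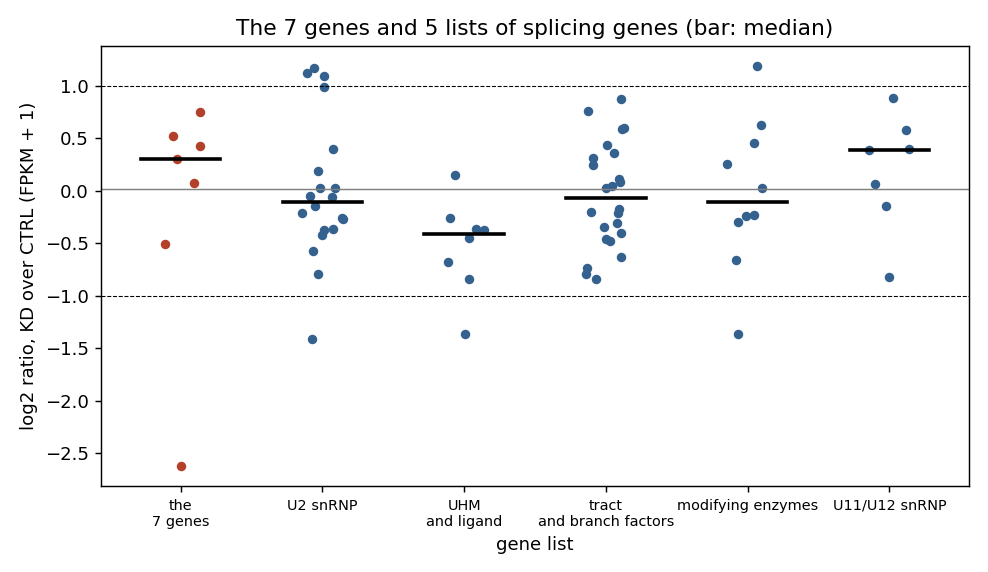
Log2 ratio of KD over CTRL (FPKM + 1) for the 7 genes (red) and for 5 lists of other splicing genes (blue), with a black bar at each median, a grey line at the median of all genes and dashed lines at -1 and 1. U2AF2 lies at -2.63, and the lowest gene of the 5 lists, DDX46, lies at -1.41.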

How the data were processed

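The samples were 3 pools of K562 cells transfected with aCP1/2 siRNAs and 3 with control siRNAs. Per the labels, the authors made TruSeq V1 libraries and their processing notes name TopHat 1.4.1, Cuffdiff 2.2.0 and hg19. The methods name transcripts of Ensembl release 65. The deposited FPKM values and the deposited estimated counts are 1 per gene and group, and how the authors combined libraries is not given in the sources used here. Of the positive counts, 78.4% (KD) and 79.4% (CTRL) were whole within 0.0001. The authors' columns of fold changes and p-values were not used.

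Log2 ratios used a pseudocount of 1, which understates changes of low genes, and a mean FPKM of at least 1. Counts were rounded for intervals. Members, lists and rules were chosen with earlier results of these data known. Named are the 7 genes, the extremes of each list and all its genes past a log2 ratio of 1, neighbours within 100 kb, the 5 nearest genes, targets and markers. The genes as low as U2AF2 were named after their values were seen. GC content and length came from the longest GENCODE release 44 transcript (96.8% of tested genes), acceptors from GRCh37, and the trend was quadratic. Some items are not reported here. The scripts were tested on simulated data. The software was scipy 1.17.1, numpy 2.4.6, pysam 0.24.0, pandas 2.3.3 and matplotlib 3.10.9 under Python 3.11.15.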

Additional observations from a re-analysis of the deposited data

How the results depend on the processing

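Under the alternatives, 153 values were computed for 28 results, and 25 moved past the counting interval of a gene, the order-statistic interval of a median or 1.5 times a count. U2AF2 kept its sign in all 5 of its alternatives, which is a description because it was chosen for its low value in the KD column. A change of pseudocount could not have reversed that sign, and neither could the sum over its single row. With shares of the column's counts, the log2 ratio was -2.998 for U2AF2, 0.34 for U2AF1, 0.31 for PUF60 and 0.37 for SF1, and 1351 of all genes were at -1 or less in place of 450. Under it the U2 snRNP list had 2 genes at -1 or less and 1 at 1 or more, the list of tract and branch point factors had 3 at -1 or less, the enzymes had 0 at 1 or more and the U11/U12 list had 1 at -1 or less. After adjustment for GC content and length, U2AF2 was at -3.13, U2AF1 at 0.88, PUF60 at -0.069, SF1 at -0.11 and RBM39 at 0.24, 666 of all genes were at 1 or more in place of 1169, and the tract and branch point factors had 1 gene past the limit in each direction. A pseudocount of 0.1 gave 791 of all genes at -1 or less, and a filter on an FPKM over 5 in at least 1 column gave 292, where fewer genes were counted. The other causes were not tested. Summing the rows of a symbol gave identical values, since each member has 1 row. No paired analysis was possible because the libraries of a group share a single column, and for the same reason none could be left out. The count-share intervals of U2AF1L4, ZRSR2 and RBM39 include equal shares, and those of U2AF1L4 and ZRSR2 are the widest of the 7.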
